A study of Mus musculus with 38 samples.

Results

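Nip7 encodes a nucleolar protein needed to make ribosomal subunits, and it was examined here together with the other genes of nucleolar ribosome biogenesis. The genes were chosen by name, as the rows of a normalized expression table whose gene symbol is in a list of factors that process ribosomal RNA (rRNA) or assemble the subunits. The list held 45 genes, and all 45 were among the 23125 genes of the table. Of these, 38 passed the filter on low values, a geometric mean of at least 0.1 FPKM (fragments per kilobase of transcript, scaled to the fragments mapped in the library) over all libraries, as did 7967 genes in all. The other 7 genes (Utp18, Nop14, Tsr1, Rrp12, Nop2, Gar1 and Gnl2) were not tested and are described only by their values.

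The study asked which mRNAs are translated when mouse oocytes and early embryos enter M phase. Cell lysates were spread on a sucrose gradient, 10 fractions were taken, and RNA from the lighter 5 (mRNA not bound to polysomes, called non-polysomes) and the heavier 5 (mRNA loaded with ribosomes, called polysomes) was sequenced. The 6 stages sampled gave 12 groups with 3 libraries each, 36 in all. All material came from hormone-stimulated ICR female mice. GV oocytes are arrested at prophase of the first meiotic division. MII oocytes are in meiotic metaphase and had been cultured for 12 h from GV oocytes. Zygotes were recovered from oviducts after mating, two-cell embryos were grown from zygotes in culture medium, and both stood for interphase. Zygote M and two-cell M embryos were held in the first and the second mitosis with 10 µM nocodazole, a drug that depolymerises microtubules. The drug therefore goes with M phase in both embryo comparisons, and the drug and the phase cannot be told apart. M-phase embryos are also later in development than their interphase pair, and interphase zygotes were collected at isolation. Phase and time cannot be told apart either. The MII oocytes were matured in culture, and the study's methods name nocodazole for the embryos. Oocytes were isolated in medium with IBMX, used to keep meiosis from resuming, and cultured to MII without it. IBMX and time in culture therefore differ between GV and MII oocytes as well. The deposited treatment field names meiosis for both kinds of nocodazole-treated embryo and reads WT for the MII oocytes, which goes against the titles and the study's methods. The groups here follow the titles. Cycloheximide kept the ribosomes on the mRNA in every sample. The study calls the replicates biological. The labels do not say from which animals they came. The p-values rest on the spread between libraries of a group, pooled for each gene over all 12 groups. They do not measure the spread of the compared groups alone.

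Ribosomes are built in the nucleolus. A long precursor rRNA is folded, modified and cut within the small subunit processome, guided by box C/D and box H/ACA small nucleolar RNA-protein particles, and the 2 subunits are then finished along separate routes. The nucleoli of growing oocytes turn into compact, transcriptionally silent bodies, early embryos begin with nucleolus precursor bodies, and rRNA synthesis restarts around the two-cell stage in the mouse. FPKM is a share of a library, so fewer cells and less RNA per cell cannot be told apart.

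The sequences of Nip7 and of Nop16, which had its higher values in the two-cell stages, are shown first, followed by short windows around motif matches. Nip7 lies on chromosome 8 (GRCm38, 107056877 to 107060932, plus strand) and Nop16 on chromosome 13 (54584185 to 54590091, minus strand), both protein coding. The 250 bases upstream of each RefSeq start (GRCm38.p6) are given from 5′ to 3′, with matches to GGGCGG (GC box) and ATTGG (reverse of the NF-Y box CCAAT) in capitals. Both strands of all promoters were searched.
Nip7, chr8:107056627-107056876, plus strand: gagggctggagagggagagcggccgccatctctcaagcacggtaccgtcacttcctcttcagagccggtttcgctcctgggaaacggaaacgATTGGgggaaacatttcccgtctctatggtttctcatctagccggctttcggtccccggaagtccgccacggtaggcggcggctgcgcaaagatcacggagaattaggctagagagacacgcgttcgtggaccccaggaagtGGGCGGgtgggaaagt
Nop16, chr13:54590075-54590324, minus strand: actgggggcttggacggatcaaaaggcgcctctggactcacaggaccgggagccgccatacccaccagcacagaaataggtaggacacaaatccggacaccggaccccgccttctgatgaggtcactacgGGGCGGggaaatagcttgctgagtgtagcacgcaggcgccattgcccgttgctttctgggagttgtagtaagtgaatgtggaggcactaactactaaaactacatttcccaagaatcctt
The Nip7 stretch held 1 ATTGG that began 158 bases before the start and 1 GGGCGG that began 16 bases before it. The Nop16 stretch held 1 GGGCGG that began 120 bases before the start.

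Promoters of 37 of the 45 genes were matched in the RefSeq set, each running from 250 bases before to 50 bases after the start. CACGTG, the E-box read by MYC, a known activator of ribosome biogenesis genes, was in 9 of the 37 (24.3%), in 10.8% of the 5241 promoters of all tested genes and in 7.18% of 27025 promoters. It reads the same on both strands. The genes were Imp4, Ltv1, Nmd3, Nop2, Pes1, Tsr1, Utp18, Utp4 and Wdr43. CCAAT or ATTGG was in 13 of 37 (35.1%, against 41.4% of tested genes) and GGGCGG or CCGCCC in 23 of 37 (62.2%, against 64.8%). These are matches of letters, not sites of binding. Windows of 30 bases with the E-box in capitals are shown for 3 genes of the small subunit processome, because their levels are compared further on. The match in Imp4 begins 121 bases before the start, and those in Utp4 and Wdr43 lie in the 50 bases after it.
Imp4, chr1:34439696-34439725, plus strand: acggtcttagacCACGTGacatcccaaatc
Utp4, chr8:106893643-106893672, plus strand: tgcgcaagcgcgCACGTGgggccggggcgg
Wdr43, chr17:71616220-71616249, plus strand: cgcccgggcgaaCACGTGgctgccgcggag

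Maturing oocytes activate stored mRNAs through the cytoplasmic polyadenylation element in the 3′ end, a U-rich motif bound by CPEB. TTTTAT, its usual form written as DNA, was searched on the transcript strand in the last 100 bases of GENCODE transcripts and was found for 8 of 40 matched genes (20%), against 14.9% of 5911 tested genes. The 8 were Dkc1, Emg1, Gar1, Heatr1, Mphosph10, Nop16, Utp18 and Wdr75. Of the longer forms, TTTTAAT was found for 1 of the 40 (2.5%, against 5.72% of tested genes) and TTTTAAAT for 1 (2.5%, against 2.67%). Windows of 30 bases are given for Emg1, Nop16 and Heatr1, with TTTTAT in capitals, and for Nip7, whose last 100 bases held no TTTTAT, with the polyadenylation signal ATTAAA in capitals. The transcripts searched for Emg1 and Heatr1 stop short of the listed gene ends (124704085 and 12440290). For Emg1, Nop16 and Heatr1 the last 100 bases held neither AATAAA nor ATTAAA, so these windows may not lie at the 3′ end used in the cells.
Emg1, chr6:124704381-124704410, minus strand: ttttcctataaagagTTTTATttcgttttt
Nop16, chr13:54584191-54584220, minus strand: ttgaaaagcataTTTTATacattgcctatg
Heatr1, chr13:12438864-12438893, plus strand: ctaaggagtaaaccggatggtatTTTTATa
Nip7, chr8:107060895-107060924, plus strand: cctctacaatggATTAAAattttttaaact

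The 36 libraries differed in depth and in how many genes they recorded. Estimated depth was 8490000 to 26660000 fragments (median 21050000), so that 1 fragment of Nip7 was worth 0.0120 to 0.0376 FPKM. The lowest value in the table is 0.01 FPKM, which appears to be a constant added to every value, so that a gene at 0.01 is listed at 0. In two-cell M polysomes 17.9% to 29.4% of the tested genes were at this lowest value, against 6.44% to 9.05% in two-cell polysomes. The members went the other way, with 0 to 1 of the 45 at the lowest value in two-cell M polysomes and 3 to 6 in two-cell polysomes. Between replicate libraries, r over genes (which are not independent) ranged from 0.58 in two-cell non-polysomes to 0.96 in zygote polysomes. The summed level of 10 oocyte genes in polysomes was 2839 to 3221 FPKM in GV, 351 to 402 in two-cell and 35.7 to 192 in two-cell M, and 1 of the 10 was at the lowest value in all 3 two-cell M libraries. Of 9 cumulus and granulosa cell genes, 5 were at the lowest value in all 3 two-cell M polysome libraries and 6 in the two-cell ones, with sums of 0.09 to 3.08 and 0.09 to 1.95 FPKM. In non-polysomes the sums were 0.09 to 0.115 FPKM in two-cell M and 0.0924 to 55.3 FPKM in two-cell embryos, the highest from Hsd3b1 (up to 34.7 FPKM) and Inha (up to 20.1 FPKM). Of 4 red blood cell genes in the table, 2 were at the lowest value in all two-cell M and 1 in all two-cell polysome libraries, and the sums of the 4 were 24.4 to 42.5 and 34.3 to 83.7 FPKM, mostly from Hba-a1, against at most 1.33 FPKM in zygote M polysomes. In non-polysomes the red blood cell sums were 0.04 to 52.6 FPKM in two-cell M and 99.7 to 162 FPKM in two-cell embryos. The summed level of 8 two-cell embryo genes was 10.6 to 136 FPKM in two-cell M and 123 to 191 FPKM in two-cell polysomes, and 25.2 to 372 and 446 to 723 FPKM in the non-polysomes. The part of these marker levels in the members' changes was not tested.

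Levels differed widely among the genes. Imp3, a core protein of the U3 particle in the small subunit processome, had the highest geometric mean (144 FPKM), followed by Nop10, a structural protein of the box H/ACA particle (80.5 FPKM). Only 5 of the 45 genes exceeded 10 FPKM on average and 17 exceeded 1 FPKM. The remaining 21 tested genes were below 1 FPKM. The map of levels by library shows this order.

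**Figure D1:**
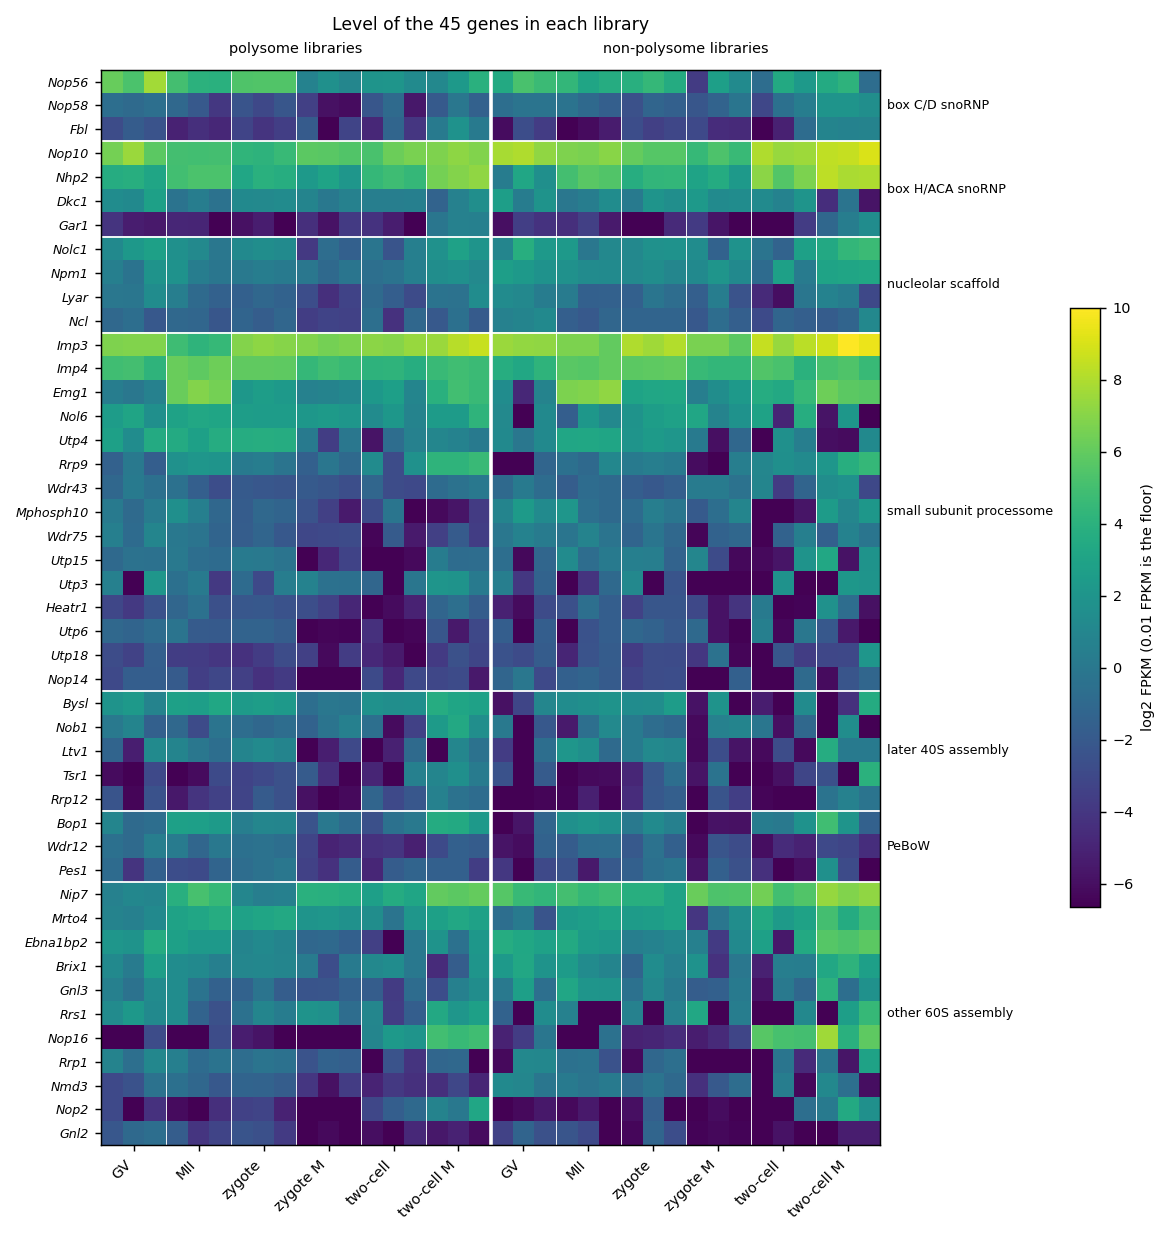
Level of the 45 genes in each of the 36 libraries as log2 FPKM, with genes in rows and libraries in columns grouped by fraction and stage. Imp3 and Nop10 are the brightest rows, and most rows are brighter in the two-cell M libraries than in the two-cell libraries.

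Nip7 mRNA was higher in polysomes in each M phase than in the stage before it. The protein binds pre-60S particles and is needed for rRNA maturation. In polysomes its level was 1.59, 2.12 and 1.92 FPKM in GV oocytes and 14.4, 35.2 and 22.4 FPKM in MII oocytes. It was 1.98, 1.38 and 1.49 FPKM in zygotes and 15.2, 14.3 and 12.8 FPKM in zygote M embryos. It was 6.59, 11.9 and 8.90 FPKM in two-cell embryos and 64.1, 56.1 and 65.9 FPKM in two-cell M embryos. No M-phase library overlapped the interphase or prophase libraries of its pair. The log2 fold changes were 3.59, 3.14 and 2.80 (SE 0.44 each). Nip7 was among the genes the study followed for this pattern, so these polysome changes are given as a description, with no test.

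The non-polysome fraction of Nip7 did not follow the same course in all 3 pairs. Its level there was 49.7, 24.2 and 20.2 FPKM in GV and 32.7, 22 and 27.3 FPKM in MII oocytes, a log2 fold change of -0.10 (SE 0.44, adjusted p = 0.907). It was 14.0, 13.6 and 7.62 FPKM in zygotes and 74.9, 41.0 and 43.6 FPKM in zygote M embryos, a rise of 2.18 on the log2 scale (SE 0.44, adjusted p = 0.00154). It was 88.1, 30.9 and 45 FPKM in two-cell and 162, 113 and 147 FPKM in two-cell M embryos, a rise of 1.49 (SE 0.44, adjusted p = 0.00941). In both embryo pairs the Nip7 level rose in both fractions, whereas in oocytes the rise was seen in polysomes with overlapping non-polysome levels. The last of these calls was lost without two-cell non-polysome replicate B (log2 fold change 1.15, adjusted p = 0.0608), when only the compared libraries were fitted (adjusted p = 0.124) and under quantile normalization (log2 fold change 1.07, adjusted p = 0.0779).

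At every stage except MII, the Nip7 level was lower in polysomes than in non-polysomes, without overlap between the libraries. The log2 difference was -3.96 in GV oocytes, -2.82 in zygotes and -1.86 in zygote M. It was -2.49 in two-cell embryos and -1.17 after their arrest in M phase. In MII oocytes it was -0.26, within its error. The MII libraries overlapped, at 14.4, 35.2 and 22.4 FPKM in polysomes and 32.7, 22 and 27.3 FPKM in non-polysomes. Each of these log2 differences had SE 0.44. These differences use the polysome values for which the study followed Nip7, so they too are a description, with no test. FPKM values of the fractions are scaled library by library, so a difference of this kind is between shares of 2 libraries.

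**Figure D2:**
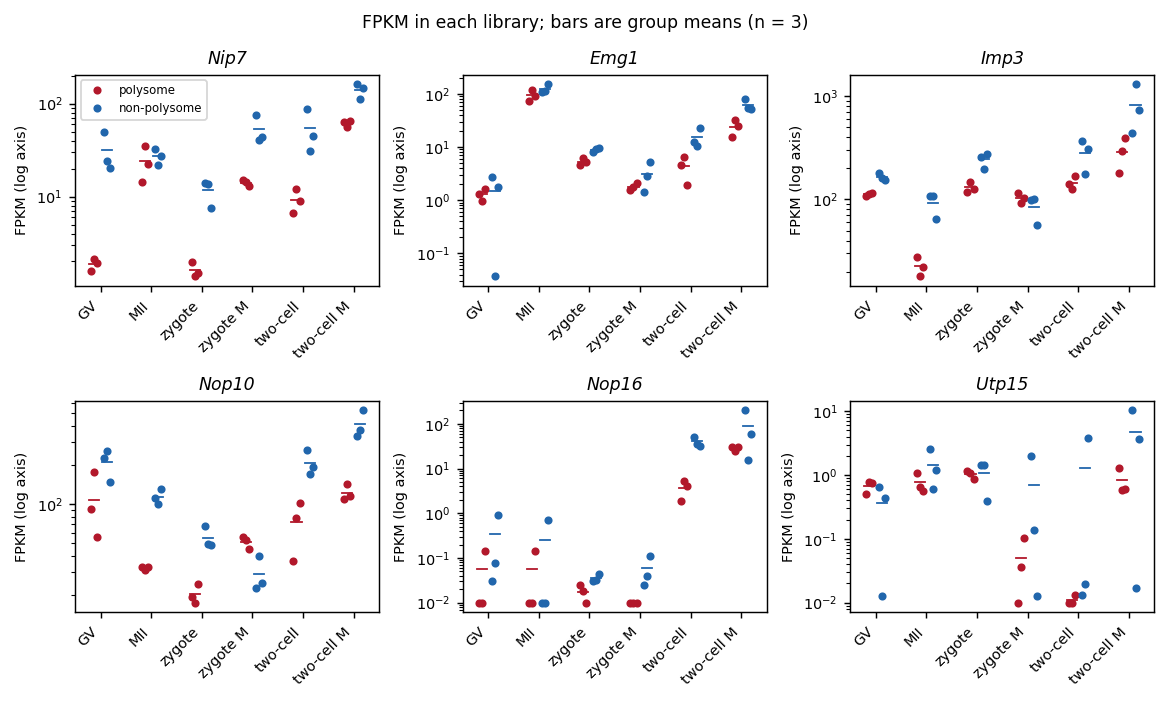
FPKM per library on a log axis for Nip7, Emg1, Imp3, Nop10, Nop16 and Utp15, by stage, with polysomes and non-polysomes in separate colours. Polysome points of Nip7 are higher in each M-phase stage than in the stage it is paired with, Emg1 is highest in MII oocytes, and Imp3 polysome points are lowest in MII oocytes.

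Few of the genes changed in polysomes between GV and MII oocytes. A change was called where the Benjamini-Hochberg adjusted p of limma, over all 7967 genes, was under 0.05 and the log2 fold change was beyond 1 in size. In MII against GV, 4 of the 37 members other than Nip7 were called, 2 higher and 2 lower, against 6.11% of all tested genes (3.36% higher and 2.75% lower). With Nip7, whose rise is a description, it was 5 of 38. The member median was -0.09 on the log2 scale and that of all genes 0.18. Libraries of the 2 stages did not overlap for 14 of the 38, against 47.5% of all genes.

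Emg1, a methyltransferase that modifies 18S rRNA, had the largest of these changes. Its polysome level was 1.30, 0.959 and 1.61 FPKM in GV and 72.6, 119 and 91.9 FPKM in MII oocytes, a rise of 6.20 on the log2 scale (SE 0.90, adjusted p = 2.69e-05). All 3 MII libraries were far above the GV libraries. In non-polysomes the rise was 7.78 (SE 0.90, adjusted p = 9.44e-07), from 2.73, 0.0369 and 1.76 FPKM to 106, 115 and 153 FPKM. The listed level was thus higher in both fractions, and the change did not differ between them beyond its error (interaction -1.58, SE 1.27, adjusted p = 0.895). Whether the amount of Emg1 mRNA or its capture in the libraries changed was not tested. Emg1 fell back to 4.58, 6.15 and 5.24 FPKM in zygote polysomes.

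Imp4, a partner of Imp3 in the U3 particle, rose from 29.9, 33.2 and 17.8 FPKM to 71.9, 58.1 and 78.7 FPKM in polysomes (log2 fold change 1.40, SE 0.36, adjusted p = 0.0161). Imp3 went the opposite way, from 108, 113 and 114 FPKM to 28.0, 18 and 22.3 FPKM (log2 fold change -2.32, SE 0.35, adjusted p = 4.22e-05). Imp3 and Imp4 proteins act in the same particle, and their mRNAs moved in opposite directions with no overlap between stages. Nop10 fell from 90.8, 177 and 56.1 FPKM to 32.6, 31.1 and 32.5 FPKM (log2 fold change -1.59, SE 0.37, adjusted p = 0.00730). The GV libraries of Nop10 varied by more than the MII libraries, which nearly coincided. The calls of Emg1 and Imp3 were kept in all 6 fits that left out 1 library, that of Imp4 was lost in 3, and that of Nop10 was lost without GV replicate B (log2 fold change -1.15, adjusted p = 0.0950).

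In the first mitosis most of the genes had lower polysome levels than in interphase zygotes. The log2 fold change was positive for 5 of the 38 (Nip7, Nop10, Utp3, Rrs1 and Nob1), and the median was -1.38, against -0.43 for all genes. Of the 37 members other than Nip7, 1 was called higher and 5 lower, against 5.75% of all genes (3.24% higher and 2.51% lower). With Nip7, 7 of 38 were past the thresholds. Libraries did not overlap for 30 of 38, against 56.5% of all genes.

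The called genes held different positions in the pathway. Nop56, a core protein of the box C/D particle, went from 43.2, 45 and 45.3 FPKM in zygotes to 1.70, 3.31 and 2.02 FPKM in zygote M polysomes (log2 fold change -4.31, SE 1.21, adjusted p = 0.0288). Ltv1, which acts late in 40S assembly, went from 1.81, 2.47 and 1.86 FPKM to 0.01, 0.0258 and 0.129 FPKM (-5.98, SE 1.81, adjusted p = 0.0467). Wdr12, a subunit of the PeBoW complex for 60S maturation, went from 0.715, 0.771 and 0.640 FPKM to 0.105, 0.0317 and 0.0395 FPKM (-3.80, SE 1.01, adjusted p = 0.0194). All 3 genes showed tight zygote values and no overlap. Nolc1, a chaperone of small nucleolar particles, went from 2.37, 2.82 and 2.46 FPKM to 0.0687, 0.623 and 0.349 FPKM (-3.37, SE 1.03, adjusted p = 0.0493). Imp4 went from 62.3, 61.0 and 59.3 FPKM to 21.4, 29.9 and 25.4 FPKM (-1.27, SE 0.36, adjusted p = 0.0334). Nop10 was the gene called higher, from 19.1, 17.4 and 24.3 FPKM to 55.7, 52.4 and 44.7 FPKM (1.34, SE 0.37, adjusted p = 0.0276).

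These first-mitosis calls changed with the libraries fitted and with the model. With 1 library left out, 1 to 2 members were past the thresholds in each of the 6 fits, Nip7 included, against 3.41% to 4.44% of all genes. With the replicate letter as a block 2 were higher and 1 lower, against 3.11% and 1.59% of all genes. Nop56 and Imp4 were called in 0 of the 6, and Ltv1, Nolc1, Wdr12 and Nop10 in 1 of the 6 each. Fitted with the zygote and zygote M polysome libraries alone, 22 of 38 were called, 2 higher and 20 lower. In the same fit 33.1% of all genes were called (11.4% higher and 21.7% lower).

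In the second mitosis 9 of 36 members rose in polysomes and 0 fell, leaving out Nip7 and Fbl, against 36.3% of all genes called (8.13% higher and 28.1% lower). Fbl reached the filter on low values through the two-cell M libraries (its geometric mean was 0.112 FPKM, and 0.0874 FPKM without those 3 polysome libraries), so its changes are given as a description. With both genes 11 of 38 were past the thresholds, and the other 27 were not. The log2 fold change of two-cell M against two-cell embryos was positive for 35 of 38 genes, with a median of 1.96, whereas the median of all genes was -1.17. Libraries did not overlap for 23 of 38, against 43.4% of all genes. Because the median of all genes fell by 1.17, changes are also given against it, and in every two-cell M polysome library the median member exceeded the median tested gene, by 2.45 to 3.30 on the log2 scale. In two-cell polysomes that difference was -1.32 to 0.24. Quantile normalization moved the median of all genes to 0.22 and the calls to 18.6% of all genes higher and 18.7% lower, and 21 members were then higher and 0 lower. The larger share of genes at the lowest value in two-cell M libraries goes with this comparison, and its part in the result was not tested. With 1 library left out, 8 to 12 members were past the thresholds in polysomes, 8 to 11 higher and 0 to 1 lower, Nip7 and Fbl counted. The share of all genes was 29% to 35%, and Nhp2, Utp15 and Heatr1 were among the members called in all 6 fits.

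**Figure D3:**
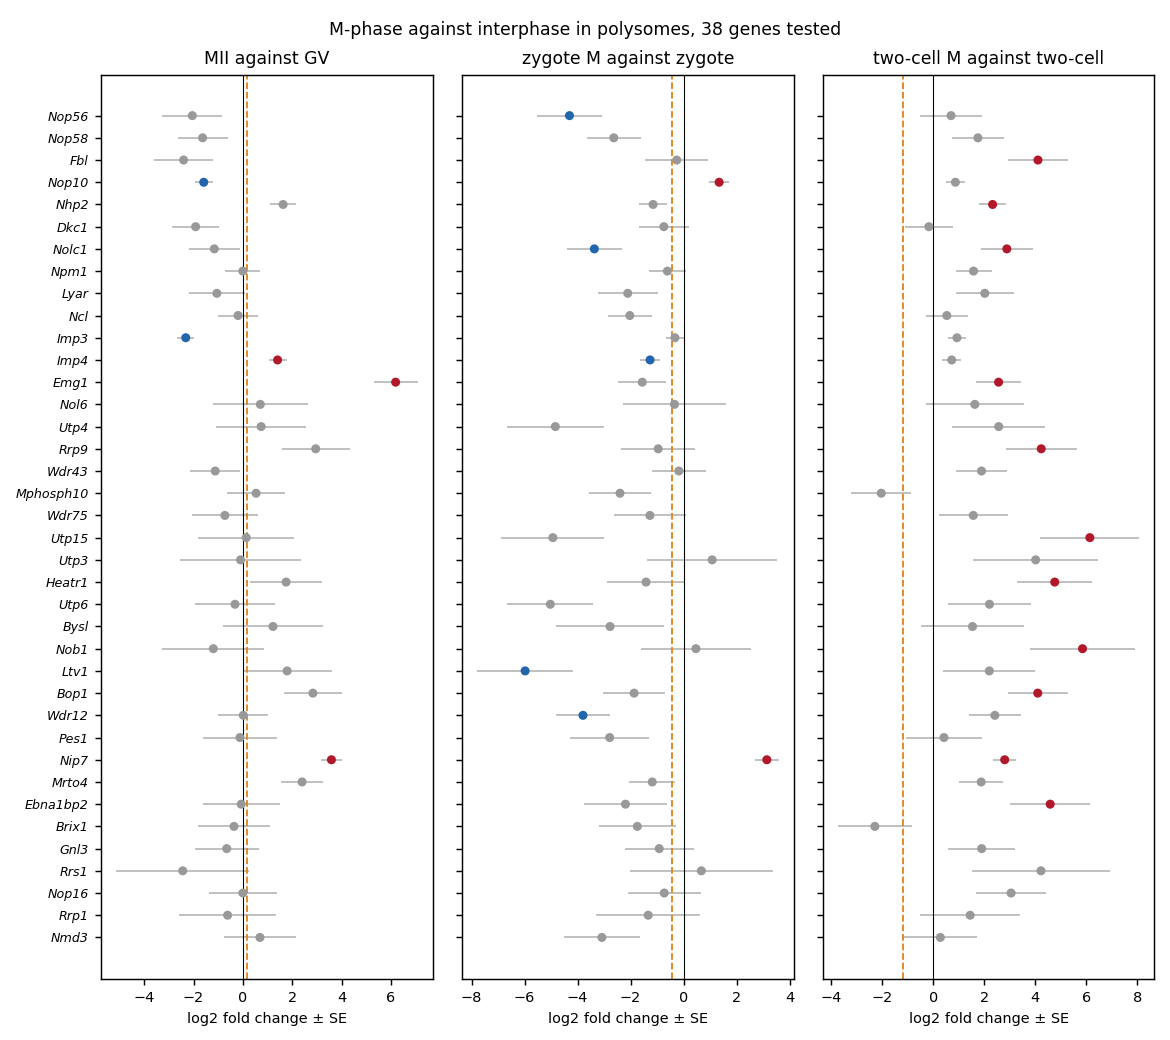
Log2 fold change with its standard error for the 38 tested genes in polysomes, in 3 panels for MII against GV, zygote M against zygote and two-cell M against two-cell, with the dashed line at the median of all tested genes. Red points are past the thresholds and higher, blue points past them and lower. Most points lie left of 0 in the first mitosis (33 of 38) and right of 0 in the second mitosis (35 of 38).

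Within the small subunit processome, 4 of 13 tested genes rose and 12 of 13 had positive changes (median 2.21), against 8.13% of all genes higher and an all-gene median of -1.17. Utp15, a component of the t-UTP group that also acts in rRNA gene transcription, was listed at 0.01, 0.01 and 0.0132 FPKM in two-cell polysomes and at 1.29, 0.588 and 0.610 FPKM in two-cell M polysomes (log2 fold change 6.14, SE 1.94, adjusted p = 0.0146). Heatr1, of the same group, went from 0.01, 0.0142 and 0.0308 FPKM to 0.435, 0.662 and 0.304 FPKM (4.76, SE 1.47, adjusted p = 0.0126). The folds of both rest on two-cell values at or near 0 fragments, and with 1 FPKM added they became 0.83 (adjusted p = 0.284) and 0.52 (adjusted p = 0.194). Rrp9, a U3 particle protein, went from 2.56, 0.146 and 3.38 FPKM to 18.5, 18.5 and 24.6 FPKM (4.23, SE 1.39, adjusted p = 0.0182), and without two-cell replicate B its change was 2.79 (adjusted p = 0.147). Emg1 went from 4.60, 6.63 and 1.92 FPKM to 15.4, 31.8 and 24.7 FPKM (2.56, SE 0.90, adjusted p = 0.0266), a call that was lost in 3 of the 6 fits with 1 library left out. Imp3 went from 141, 125 and 169 FPKM to 179, 296 and 391 FPKM, and its change of 0.93 (SE 0.35, adjusted p = 0.0369) did not reach the fold threshold.

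The E-box windows shown above belong to genes with smaller or less certain changes in this comparison. Imp4 was at 17.4, 18.1 and 13.4 FPKM in two-cell and 24.5, 29.3 and 26.6 FPKM in two-cell M polysomes (log2 fold change 0.72, SE 0.36, adjusted p = 0.122). Utp4 had 0.0183, 0.629 and 1.62 FPKM against 1.99, 1.65 and 1.19 FPKM (2.57, SE 1.83, adjusted p = 0.287). Wdr43 had 0.453, 0.148 and 0.130 FPKM against 0.562, 0.767 and 1.03 FPKM (1.89, SE 1.01, adjusted p = 0.145). Mphosph10, a further U3 protein, was the only tested gene of the processome with a negative change (-2.04, SE 1.17, adjusted p = 0.178).

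Among proteins of the small nucleolar particles Nhp2 was called. Nhp2, of the box H/ACA particle, went from 21.3, 28.1 and 21.8 FPKM to 91.3, 119 and 152 FPKM (log2 fold change 2.33, SE 0.52, adjusted p = 0.000919) and was kept in all 6 fits with 1 library left out. Fbl, the methyltransferase of the box C/D particle, went from 0.0356, 0.432 and 0.0621 FPKM to 1.16, 3.58 and 1.18 FPKM, without overlap, a log2 fold change of 4.11 (SE 1.19) that is a description. Dkc1, the pseudouridine synthase of the box H/ACA particle, stayed between 0.390 and 3.06 FPKM in the 6 libraries (-0.17, SE 0.95, adjusted p = 0.911). Nop10 had 36.6, 78.2 and 102 FPKM against 109, 142 and 115 FPKM (0.87, SE 0.37, adjusted p = 0.0694). Gar1, the last protein of that particle, did not pass the filter on low values and had 0.0552, 0.0247 and 0.01 FPKM in two-cell and 0.914, 1.60 and 1.54 FPKM in two-cell M polysomes.

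Among factors of subunit assembly and nucleolar scaffolds, calls were 1 of 3 PeBoW genes, 1 of 3 late 40S factors, 1 of 4 scaffold genes and, of 9 other 60S factors, Ebna1bp2 beside Nip7, where 8.13% of all genes were higher. These groups are too small to set against that share. Bop1, a PeBoW subunit, went from 0.165, 0.747 and 1.04 FPKM to 12, 11.2 and 4.82 FPKM (log2 fold change 4.10, SE 1.18, adjusted p = 0.00803), or 3.29 without two-cell replicate A (adjusted p = 0.0583). Nolc1 went from 0.889, 0.197 and 1.42 FPKM to 3.46, 7.45 and 3.90 FPKM (2.89, SE 1.03, adjusted p = 0.0290). Nob1, the nuclease that makes the final cut of 18S rRNA, went from 0.679, 0.0138 and 0.0933 FPKM to 5.32, 10.5 and 3.02 FPKM (5.85, SE 2.07, adjusted p = 0.0282). These 3 genes had no overlap between the stages. Ebna1bp2, a 60S assembly factor, had 0.0870, 0.01 and 1.03 FPKM against 3.69, 0.746 and 4.51 FPKM (4.59, SE 1.57, adjusted p = 0.0234), with overlap. The calls of Nob1 and Ebna1bp2 were each lost in 4 of 6 fits with 1 library left out, and that of Nolc1 without two-cell replicate B or two-cell M replicate B.

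Nop16, a 60S assembly factor whose promoter is shown above, had its higher values in the two-cell stages. Its polysome values were 0.01, 0.01 and 0.147 FPKM in GV, 0.01, 0.01 and 0.146 FPKM in MII, 0.0251, 0.0183 and 0.01 FPKM in zygotes and 0.01 FPKM in all 3 zygote M libraries. They were 1.9, 5.2 and 3.98 FPKM in two-cell and 30.6, 24.2 and 30.3 FPKM in two-cell M embryos. In non-polysomes the highest value before the two-cell stage was 0.908 FPKM, in GV replicate C, followed by 0.725 FPKM in MII replicate C. All 6 two-cell stage polysome libraries exceeded the 12 earlier ones. Nop16 passed the filter on low values through the two-cell stages, so it is counted in later comparisons but its differences from earlier stages are given by these values, with no test. The further rise from two-cell to two-cell M was 3.05 (SE 1.38, adjusted p = 0.0836), not past the threshold although the libraries did not overlap. In two-cell non-polysomes Nop16 was at 52.0, 36.3 and 32.6 FPKM and in two-cell M at 199, 15.3 and 59.7 FPKM.

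Among genes below the filter, Nop2, an rRNA methyltransferase of 60S assembly, had 0.116, 0.321 and 0.511 FPKM in two-cell and 1.71, 1.02 and 9.05 FPKM in two-cell M polysomes. Rrp12, of late 40S assembly, had 0.424, 0.129 and 0.233 FPKM against 1.56, 0.785 and 0.583 FPKM. Tsr1, also of late 40S assembly, had 0.0328, 0.01 and 1.52 FPKM against 1.87, 3.07 and 1.21 FPKM, with overlap. The other 4 untested genes were Gar1, above, and Nop14, Utp18 and Gnl2, whose two-cell M polysome values were 0.0225 to 0.138, 0.0720 to 0.172 and 0.0146 to 0.0297 FPKM.

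The second mitosis differed from the first by a test of the difference itself, chosen after these values had been seen. The change of two-cell M against two-cell minus that of zygote M against zygote in polysomes was positive for 35 of 38 genes with a median of 3.52, against a median of -0.86 for all genes. It passed the threshold for 14 of 38, all higher (13 of 37 without Utp6, which reached the filter through the zygote polysomes and is a description), against 23.7% of all genes, of which 6.87% were higher and 16.8% lower. The 14 were Utp15, Utp4, Utp6, Heatr1, Imp4 and Emg1 of the processome, Nop56 and Nop58 of the box C/D particle, Nhp2, Bop1, Wdr12, Nolc1, Ltv1 and Ebna1bp2. Utp15 had the largest difference (11.07, SE 2.74, adjusted p = 0.00421). Its polysome levels of 1.17, 1.07 and 0.851 FPKM in zygotes compare with 0.01, 0.0364 and 0.103 FPKM in zygote M, without overlap, a log2 fold change of -4.93 (SE 1.94, adjusted p = 0.16) that did not pass on its own. Imp4 had the smallest of the 14 (1.99, SE 0.51, adjusted p = 0.00582). Nip7 did not differ beyond the error (-0.34, SE 0.62), with a rise in both mitoses. Between 9 and 13 genes were called when 1 of the 12 libraries was left out, against 19% to 25.4% of all genes, and 9 without two-cell M replicate B. Bop1, Imp4, Nhp2, Nolc1, Utp15 and Wdr12 were called in all 12 fits, and Emg1 was lost without two-cell replicate C (3.62, adjusted p = 0.0535). Ltv1 was called in 9 of the 12, Ebna1bp2 in 7, Heatr1 and Nop58 in 6, Utp4 in 5 and Nop56 in 3.

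**Figure D4:**
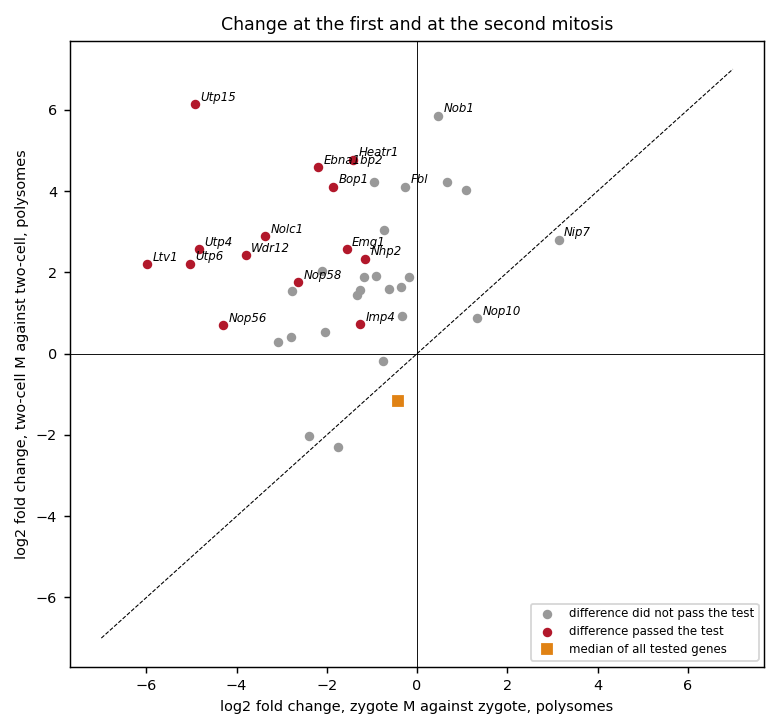
Log2 fold change in polysomes in the first mitosis (x axis, zygote M against zygote) and in the second mitosis (y axis, two-cell M against two-cell) for the 38 tested genes, with red points where the difference passed the threshold and an orange square at the median of all genes. Most genes lie in the upper left, below 0 in the first and above 0 in the second mitosis, while Nip7, Nop10, Utp3, Rrs1 and Nob1 are above 0 in both.

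In mRNA outside polysomes, two-cell M against two-cell gave 13 of 37 calls, 12 higher and 1 lower, against 36.1% of all genes (8.17% higher and 28% lower), with a median of 2.08 over 38 genes. Fbl, past the thresholds there too, is left out of these counts as a description. Nip7, Nhp2, Ebna1bp2 and Nolc1 were higher in both fractions. Npm1, Nop58, Brix1, Ltv1, Gnl3, Imp3, Mphosph10 and Lyar passed the threshold in non-polysomes and not in polysomes, and Utp15, Heatr1, Rrp9, Emg1, Bop1 and Nob1 in polysomes and not in non-polysomes. Whether these changes differ between the fractions was tested by the interaction given next. Of the 12, Nip7, Nhp2 and Ebna1bp2 were lost without two-cell non-polysome replicate B, Npm1 and Brix1 without replicate A, and Gnl3, Nop58 and Lyar were called in 4, 3 and 2 of 6 fits with 1 library left out. The lower gene was Dkc1, with 2.52, 1.68 and 4 FPKM in two-cell and 0.0453, 0.839 and 0.0184 FPKM in two-cell M non-polysomes (log2 fold change -4.85, SE 0.95, adjusted p = 0.000204). When the 6 non-polysome libraries were fitted alone, 2 members were called, against 11% of all genes in that fit. The summed levels of red blood cell genes given above were also lower in two-cell M non-polysomes, while those of cumulus genes overlapped. The part of both in this comparison was not tested.

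The change in polysomes differed from that in non-polysomes for 3 of 38 genes in the second mitosis, 1 higher and 2 lower, against 5.75% of all genes (3.2% higher and 2.55% lower). Mphosph10 had 0.140, 0.896 and 0.01 FPKM in two-cell and 0.0133, 0.0188 and 0.0729 FPKM in two-cell M polysomes, and 0.01, 0.01 and 0.0192 FPKM in two-cell and 5.67, 2.04 and 4.5 FPKM in two-cell M non-polysomes. Its values in two-cell M libraries were low in polysomes and high in non-polysomes, with no overlap (interaction -10.27, SE 1.65, adjusted p = 0.000152). Brix1, a 60S assembly factor, had an interaction of -7.11 (SE 2.04, adjusted p = 0.0348) and Dkc1 one of 4.68 (SE 1.35, adjusted p = 0.0356). The calls of Brix1 and Dkc1 were lost in 6 and in 8 of 12 fits with 1 library left out, and that of Dkc1 with the gradient as a block (adjusted p = 0.0528). In MII against GV the value of Nip7 was 3.69, a description. Of the other 37 members limma called 0, against 0.163% of all genes (0.113% higher and 0.0502% lower). In the first mitosis limma called 0 of 38, against 0.289% of all genes.

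The remaining comparisons of polysomes follow the genes along development. From zygotes to interphase two-cell embryos, Nip7 and Nop10 were higher and 6 fell (Nop56, Wdr12, Utp4, Utp15, Ltv1 and Imp4), against 16% of all genes (6.15% higher and 9.82% lower). Nop16 was also higher, but it passed the filter through its two-cell values and is a description here and below. With 1 library left out, Nop56 was called in 0 of 6 fits, Ltv1 in 1, and Utp4 and Utp15 in 2 each. From GV to two-cell, Nip7 was higher, as was Nop16 as a description, and 5 fell (Nop56, Wdr12, Wdr75, Utp15 and Ebna1bp2), against 16.7% (4.39% higher and 12.3% lower). Utp6, at 0.5, 0.41 and 0.586 FPKM in GV polysomes, was also past the thresholds but reached the filter through the GV libraries (its geometric mean was 0.103 FPKM, and 0.0897 FPKM without them) and is left out as a description. Utp15, with 0.508, 0.785 and 0.752 FPKM in GV polysomes, fell by 5.93 (SE 1.94, adjusted p = 0.0346), a size that rests on two-cell values at or near 0. That call was lost in all 6 fits with 1 library left out and that of Wdr75 in 3. Ebna1bp2 lost its call without two-cell replicate B (-4.28, adjusted p = 0.0854) and Nop56 without GV replicate C (-3.95, adjusted p = 0.057). From GV to zygote, Imp4 rose (log2 fold change 1.22, SE 0.36, adjusted p = 0.0442) and Nop10 fell (-2.27, SE 0.37, adjusted p = 0.000162), against 5.61% (1.73% higher and 3.88% lower). The call of Imp4 was lost in all 6 fits with 1 library left out.

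Between M phases, zygote M against MII gave 1 higher and 6 lower genes, leaving out Utp6, which reached the filter through its MII libraries, against 12.4% of all genes (3.4% higher and 8.95% lower). Emg1 was the most reduced, with 1.57, 1.76 and 2.09 FPKM in zygote M polysomes (-5.69, SE 0.90, adjusted p = 5.04e-05), followed by Mphosph10, Wdr12, Bop1 and Nhp2. With 1 library left out, Bop1 was called in 1 of 6 fits and Mphosph10 in 3, while Emg1, Wdr12 and Nhp2 were called in all 6. Two-cell M against MII gave 4 higher (Imp3, Nop10, Nhp2 and Nip7) and 2 lower (Mphosph10 and Imp4), against 53% (7.86% higher and 45.2% lower), where the median of all genes was -2.64. Under quantile normalization, which moved that median to -0.14, 18 members were higher and 0 lower, Nop16 and Fbl counted. In that fit 22.7% of all genes were higher and 23% lower. The calls of Mphosph10 and Imp4 were then lost (adjusted p = 0.209 and 0.0814). Nop16 and Fbl were also past the thresholds but had reached the filter through the two-cell stages, and Nip7 was lost without MII replicate A (1.14, adjusted p = 0.0559). Mphosph10 had 3.1, 1.45 and 0.474 FPKM in MII polysomes (-5.61, SE 1.17, adjusted p = 0.000251). Imp3 was called higher in both, by 2.21 and 3.62 (SE 0.35 each), its MII polysome level having been its lowest. These comparisons share libraries with the ones above.

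Npm1 and Ncl, the major nucleolar scaffold proteins, had low values and no call in any polysome comparison. Npm1 polysome values were 0.681, 0.808 and 1.44 FPKM in two-cell and 2.9, 3.26 and 2.24 FPKM in two-cell M embryos (log2 fold change 1.58, SE 0.71, adjusted p = 0.0811), without overlap. In non-polysomes Npm1 rose by 2.39 in the same pair (SE 0.71, adjusted p = 0.00906). Ncl was at 0.662, 0.0512 and 0.47 FPKM and at 0.248, 0.695 and 0.28 FPKM in the same polysome groups (0.53, SE 0.83, adjusted p = 0.649). In oocyte non-polysomes Ncl fell from 1.59, 1.83 and 2.44 FPKM in GV to 0.331, 0.253 and 0.453 FPKM in MII (-2.52, SE 0.83, adjusted p = 0.0358), a call that was lost in all 6 fits with 1 library left out.

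In non-polysomes, MII against GV gave 7 higher genes and 1 lower, against 16.6% of all genes (13.5% higher and 3.14% lower). They were Emg1, Nhp2, Bop1, Wdr12, Rrp9, Mrto4 and Imp4, with Ncl lower. Under quantile normalization the split was 5 higher and 5 lower, against 13.1% and 13.5% of all genes. With 1 library left out, Rrp9 was called in 3 and Wdr12 in 2 of 6 fits, and the other 5 higher genes in all 6. Nhp2 went there from 1.27, 9.16 and 3.08 FPKM to 32.1, 52.4 and 45.7 FPKM (log2 fold change 3.69, SE 0.52, adjusted p = 1.27e-05). Zygote M against zygote gave 1 higher (Nip7) and 7 lower genes, against 10.4% (1.05% higher and 9.36% lower), with a median of -1.43. The lower genes were Bop1, Imp3 and Imp4, called in all 6 fits with 1 library left out, Mrto4, lost without zygote M replicate A (-1.97, adjusted p = 0.0884), Nop56 (2 of 6 fits), Rrp9 and Ltv1 (1 of 6 each). Bop1, which did not pass in polysomes, was the most reduced in non-polysomes, from 1.04, 2.55 and 1.52 FPKM to 0.01, 0.0174 and 0.0170 FPKM (-6.80, SE 1.18, adjusted p = 0.000298).

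Polysome against non-polysome levels within a stage were compared without pairing the fractions of one gradient, and the calls with the gradient as a block are given where they differ. Nip7, described above, is left out of these counts. In GV oocytes 3 of 37 were higher in polysomes (Nhp2, Bop1 and Wdr12) and 0 lower, against 4.96% of all genes (2.61% higher and 2.35% lower). With Nip7 counted, the 3 higher and 1 lower turned to 1 higher and 4 lower with 1 FPKM added, against 5.64% and 6.35% of all genes. Under quantile normalization 2 were higher and 4 lower, against 3.87% and 7.14%. With the GV libraries alone 0 were higher and 1 lower, against 1.41% and 2.85%. With 1 library left out, Nhp2 was called in 1 and Bop1 and Wdr12 in 2 of 6 fits. In MII 2 were lower (Nop10 and Imp3), against 0.753% (0.0502% higher and 0.703% lower). Imp3 was called in all 6 fits with 1 library left out and Nop10 in 2. In zygotes 1 was lower (Nop10), against 1.38% (0.0377% higher and 1.34% lower). Nop10 was called there in 0 of 6 such fits and was lost with the gradient as a block (adjusted p = 0.0657). In zygote M 1 was higher (Bop1) and 1 lower (Nop58), against 1.92% (1.43% higher and 0.49% lower). The gradient block left Bop1 and ended the call of Nop58 (adjusted p = 0.0927). Bop1 was called in 3 and Nop58 in 2 of the 6 fits with 1 library left out. In two-cell embryos 2 were lower (Nop10 and Nhp2), against 16.1% (9.69% higher and 6.38% lower), and the gradient block added Ebna1bp2 (adjusted p = 0.0278) and Nop16, a description. Nhp2 was lost without two-cell non-polysome replicate A (-1.55, adjusted p = 0.0636). In two-cell M 3 were higher (Dkc1, Nob1 and Nol6) and 5 lower (Nop10, Nop58, Brix1, Imp3 and Mphosph10), against 14.8% (9.7% higher and 5.06% lower). Nop10, Imp3 and Mphosph10 were called in all 6 fits with 1 library left out, Dkc1 was lost without two-cell M non-polysome replicate C (2.67, adjusted p = 0.0551), Nol6 and Brix1 were called in 3, and Nob1 and Nop58 in 1. The gradient block ended the call of Nop58 (adjusted p = 0.0854) and added Utp4, higher, and Ebna1bp2, lower (adjusted p = 0.022 and 0.0101). Under quantile normalization 2 were higher and 1 lower, against 4.64% and 3.21% of all genes. With the 6 two-cell M libraries alone all 8 calls were lost (adjusted p from 0.0846 to 0.439), and 0.238% of all genes were called.

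Some of the genes have near-identical copies, and the fragments could be split between them. Npm1, the abundant nucleolar scaffold protein, was listed at mean polysome levels of 0.791 to 2.80 FPKM per stage, while its 8 pseudogene copies summed to means of 14.4 to 38.3 FPKM. Mrto4, a 60S assembly factor, averaged 8.16 FPKM in two-cell M polysomes and its 2 pseudogenes summed to 22.5 FPKM. The pseudogene Gm5812 matches 984 bases of Fbl at 96.85% identity and averaged 8.37 FPKM in two-cell M polysomes (0.0101 to 25.1 FPKM), against 1.97 FPKM of Fbl itself. Two-cell polysomes had 7.49 FPKM of Gm5812 (0.714 to 19.3 FPKM) and 0.177 FPKM of Fbl. The Gm5812 log2 fold change between these groups was -4.56 (SE 2.61, limma adjusted p = 0.177), with a sign opposite to that of Fbl. Whether fragments moved between the 2 was not tested. Values of Npm1, Mrto4, Fbl, Nop56, Wdr12 and Pes1 are therefore uncertain. The copy of Nip7 with the longest match, Gm12486 with 91.5% identity over 541 bases, did not exceed 0.446 FPKM in any library. A Trim6 transcript matched 200 bases of Nip7 at 91.5% identity, and Trim6 reached 2.081 FPKM in its highest library (median 0.0295 FPKM).

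**Figure D5:**
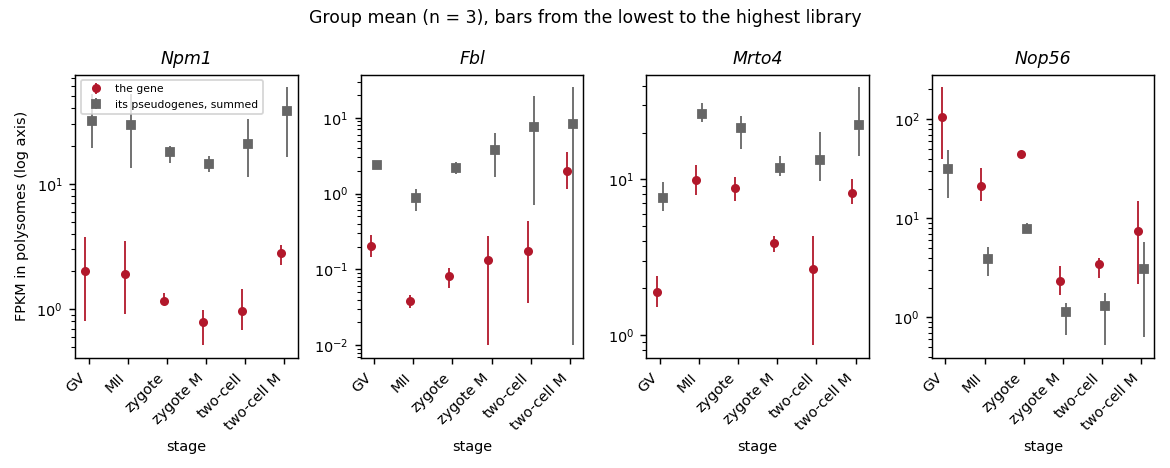
Mean FPKM in polysomes of Npm1, Fbl, Mrto4 and Nop56 and of the sum of their pseudogene copies at each of the 6 stages on a log axis, with bars from the lowest to the highest library. The copies of Npm1 and Mrto4 are above the gene at every stage, and those of Nop56 are below it.

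Genes with a polysome course most like that of Nip7 were ranked by Pearson r of log2 FPKM over the 18 polysome libraries, which share stages. They were Cenpa (0.94), Crb3 (0.89), Snf8 (0.88), Mad2l1bp (0.87) and Prdx5 (0.87), of which Cenpa encodes the centromeric histone H3 variant. The member most like Nip7 was Rrp9 (0.66, rank 151), then Nhp2 (0.65) and Emg1 (0.61), and the least alike was Nop56 (-0.64). The median r between pairs of members was 0.29, against 0.17 between pairs of all tested genes.

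A wider list of 116 other ribosome biogenesis genes, of which 75 were tested, was counted with the same thresholds. Unlike the members, these genes were not checked for reaching the filter on low values through the higher group. The counts of this list are therefore a description. In two-cell M against two-cell polysomes 18 of the 75 rose and 0 fell, with a median of 1.71, against 8.13% of all tested genes higher and 28.1% lower. In zygote M against zygote 0 rose and 6 fell, with a median of -2, against 3.24% higher and 2.51% lower, and in MII against GV 4 rose and 0 fell, against 3.36% higher and 2.75% lower. The difference between the mitoses passed for 23, all higher, with a median of 4.17, against 6.87% higher and 16.8% lower. Two-cell M against MII polysomes did not go as for the members. There 10 of the 75 rose and 14 fell, with a median of -1.31, against 7.86% higher and 45.2% lower. Of the 38 members 6 rose and 2 fell, with a median of 0.15, Nip7, Nop16 and Fbl counted. The largest rises in the second mitosis, named after their values were seen and given with no test, were those of Nop9 (log2 fold change 6.75), Senp3 (5.42) and Surf6 (5.31).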

How the data were processed

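RNA of mouse oocytes and embryos in polysome and non-polysome fractions was sequenced with an unstranded library kit. The authors trimmed reads with Trim Galore 0.4.1, aligned them with STAR 2.5.3a to GRCm38 and deposited normalized FPKM values per gene from Partek with 0.01 as the lowest value. Of 38 samples, 36 have a column. The first zygote replicate (A) of each fraction was not analysed here. Groups were taken from the sample titles, since the treatment field names meiosis for the embryo M samples. The members and lists were chosen with earlier results of these data known.

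Values were taken as log2 with nothing added, the 7967 genes whose geometric mean reached 0.1 FPKM were kept, and limma 3.58.1 (R 4.3.3) fitted 12 group means over 36 libraries with a variance trend. Benjamini-Hochberg adjustment ran over all 7967 genes, and a change was called at adjusted p under 0.05 and a log2 fold change beyond 1. The fit was also tried on simulated data, whose outcome is not given, so nothing here rests on it. Depth was estimated from the steps of low values after 0.01 was subtracted. Of values up to 4 fragments, 29.5% to 45.2% per library were within 0.05 of a whole fragment and 3.94% to 7.33% within 0.05 of a half-way point, so depth is approximate. With nothing subtracted 9.29% to 27.2% were whole. FPKM keeps no error of counting, and no interval from depth is given. Copies were found with BLAST+ 2.17.0 at 90% identity over 200 bases. All members could be named, Npm1, Ncl, Fbl and Dkc1 were always described, and of other genes the 5 most like Nip7, near-identical copies and the 3 largest rises of a wider list, the last chosen after seeing the data. Called members that reached the filter only through the higher group of a comparison (Fbl and Utp6) are a description there. Nip7 polysome changes at M phase and its differences between fractions are given as a description, since the study had singled it out, and members were also counted without Nip7. Alternatives were 1 FPKM added, no filter, quantile normalization, only the compared libraries, replicate letter or gradient as a block, and leaving out each library. The test of the second against the first mitosis was added after seeing the data.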

Additional observations from a re-analysis of the deposited data

Results flagged for a closer look

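Differences between effects are given here as values, with log2 units throughout. The change of Nip7 from GV to MII was larger in polysomes than in non-polysomes by 3.69, a description, since the study had singled out Nip7. The other values, save that of Utp6, passed the test of the difference. In two-cell M against two-cell the change differed between polysomes and non-polysomes by 4.68 for Dkc1, -7.11 for Brix1 and -10.27 for Mphosph10.

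The polysome change in the second mitosis exceeded that in the first for 14 genes, of which Utp6 is a description, as it reached the filter on low values through the zygote polysomes. The difference was 11.07 for Utp15, 8.18 for Ltv1, 7.41 for Utp4, 7.24 for Utp6 and 6.78 for Ebna1bp2. It was 6.25 for Nolc1, 6.21 for Wdr12, 6.18 for Heatr1 and 5.97 for Bop1. It was 5.01 for Nop56, 4.39 for Nop58, 4.12 for Emg1, 3.48 for Nhp2 and 1.99 for Imp4. Most of these genes had values at or near 0.01 FPKM in at least 1 of the 4 groups, so the sizes depend on that lowest value.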

How the results depend on the processing

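No called fold change turned its sign under the alternatives run. Counts here include Nip7, Fbl, Utp6 and Nop16. The balance of higher and lower calls turned for polysomes against non-polysomes in GV and in two-cell M as given above. In zygote M (1 higher and 2 lower) it turned to 2 higher and 1 lower with only the compared libraries, against 1.38% and 0.439% of all genes. With the gradient block it was 1 higher and 0 lower, against 1.36% and 0.502%. For polysomes of zygote M against zygote (2 higher and 5 lower) it turned to 2 higher and 1 lower with the letter block, against 3.11% and 1.59%. Quantile normalization left 18 higher and 0 lower in polysome two-cell M against MII, against 22.7% and 23% of all genes. It left the same counts in non-polysome two-cell M against two-cell, against 11.8% and 13.6%. In non-polysome zygote M against zygote it left 3 higher and 5 lower, against 7.54% and 6.34%. Counts of members called that moved by over 1.5 times are given with the share of all genes called under the same setting in brackets, and the cause was not tested. With 1 FPKM added, polysome calls were 10 (20.1%) in MII against GV, 4 (16.4%) in zygote against GV and 13 (41.8%) in two-cell M against MII, and polysome against non-polysome calls were 14 (14.1%) for two-cell M, 7 (15.7%) for two-cell and 1 (1.56%) for zygote M. Without a filter they were 5 (5.12%) in non-polysome zygote M against zygote, 1 (1.19%) in polysome against non-polysome zygote and 1 (2.44%) in the two-cell M interaction. Under quantile normalization, polysome calls were 10 (19.4%) in MII against GV, 21 (37.3%) in two-cell M against two-cell, 8 (17.7%) in zygote against GV, 16 (26.1%) in zygote M against MII and 18 (45.7%) in two-cell M against MII. The difference between the mitoses gave 22 (29.6%), polysome against non-polysome 3 (7.86%) for two-cell M, 5 (16.1%) for two-cell, 5 (3.59%) for zygote M and 1 (2.82%) for zygote, and the interactions 1 (4.28%) at the second mitosis and 1 (0.615%) at the first. With only the compared libraries, polysome calls were 11 (27.1%) in MII against GV, 22 (33.1%) in zygote M against zygote, 8 (31%) in zygote against GV, 14 (33.8%) in two-cell against zygote, 22 (40.6%) in zygote M against MII and 15 (49%) in two-cell M against MII, and the difference gave 22 (30.5%). Non-polysome calls were then 2 (11%) at the second mitosis and 5 (10.5%) at the first, polysome against non-polysome 1 (4.26%) in GV, 5 (20.1%) in zygote and 0 (0.238%) in two-cell M, and the interactions 1 (1.37%) at the second mitosis and 2 (4.69%) at the first.

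Samples with one letter did not deviate together (mean r 0.02 in each fraction), nor strongly did both fractions of one gradient (mean r 0.08), so they were not taken as pairs. With the letter as a replicate block, calls were 3 (4.71%) in polysome zygote M against zygote, 1 (4.39%) in zygote against GV and 5 (7.1%) in non-polysome zygote M. With the gradient as a replicate block, polysome against non-polysome calls were 1 (1.31%) in zygote, 1 (1.86%) in zygote M and 5 (16%) in two-cell.

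Leaving out 1 library gave these ranges, with those of all genes in brackets. Polysomes gave 4 to 5 (3.67% to 5.2%) in MII against GV, 1 to 2 (3.41% to 4.44%) in zygote M against zygote, 8 to 12 (29% to 35%) in two-cell M against two-cell, 1 (2.82% to 5.59%) in zygote against GV, 4 to 7 (11.3% to 13.6%) in two-cell against GV, 5 to 9 (9.61% to 14.1%) in two-cell against zygote, 5 to 8 (7.9% to 9.2%) in zygote M against MII and 7 to 9 (45.9% to 51.9%) in two-cell M against MII. Non-polysomes gave 5 to 9 (9.75% to 17.1%) in MII, 12 to 19 (31.9% to 34.7%) at the second mitosis and 4 to 8 (5.54% to 10.5%) at the first. Polysome against non-polysome calls were 1 to 5 (1.74% to 7.71%) in GV, 1 to 2 (0.251% to 0.615%) in MII, 1 (0.678% to 1.17%) in zygote, 5 to 7 (11.3% to 16.1%) in two-cell M, 3 to 6 (11% to 18.2%) in two-cell and 0 to 4 (0.778% to 2.65%) in zygote M. The interactions gave 1 (0.0502% to 0.602%) in MII, 1 to 5 (4.68% to 8.05%) at the second mitosis and 0 to 1 (0.1% to 1.22%) at the first, and the difference of the mitoses 9 to 13 (19% to 25.4%). Folds against groups at or near 0.01 FPKM depend on that value, since 0 or few fragments stand behind it.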
